A study of Mus musculus with 12 samples.

Results

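The 42 genes described here encode the machinery of mitosis, from the cyclins and kinases that start it to the proteins that divide the cell. They were listed by known function, with earlier results of these data known, and each was matched to the array by its gene symbol. The array carried 30774 symbols and held 41 of the 42, with Nuf2, an outer kinetochore protein, having no probe under that symbol. For a gene with several probes the one of highest mean level was used, and 34 members were bright enough to be tested. To be tested, a probe had to be detected (p-value under 0.05) on 3 arrays or more, which 17607 of 45281 probes were.

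The arrays held RNA of pre-B cells taken before malignancy from C57BL/6 mice, sorted fresh from the animals. Both groups carried the Eµ-Myc transgene, which drives Myc in B-lineage cells, so the wildtype arrays too describe Myc-driven cells. In the 6 null samples both copies of Smchd1, which encodes an SMC family protein known for gene silencing, also carried a gene-trap insertion, and in the 6 wildtype samples neither did. Ages and the number of mice behind a sample are not given in the sources used here, so p-values measure only the spread between these samples.

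Entry into mitosis is driven by cyclin B bound to the kinase Cdk1, which Cdc25 phosphatases switch on. The spindle assembly checkpoint then holds the anaphase-promoting complex in check until every kinetochore is attached to microtubules, after which securin and cyclin B are destroyed and the chromosomes part. Most of these genes are transcribed in late S, G2 and M phase under the DREAM, B-Myb and FoxM1 regulators, and in bulk samples of cycling B-lineage cells their RNA follows how many cells are in those phases as well as how much each cell makes. Fewer cells of a kind and less RNA per cell cannot be told apart in such samples.

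Smchd1, the check of the labels, was 21.4-fold lower in null than in wildtype arrays by its fitted means (5.05 ± 0.35 against 9.47 ± 0.14 log2 intensity, SD, n = 6 each). Its probe was detected on all 6 wildtype and on 4 of the 6 null arrays. Of 13 pre-B cell markers on the array 9 were detected on all 12 arrays, and Vpreb2, a surrogate light chain gene, was detected on none. Between 15396 and 16587 probes were detected per array. Mean intensity was 3.08 to 4.43 times that of negative controls, and precision is limited by how many arrays there were. Each of the 2 BeadChips carried 3 arrays of each genotype, with null 4, 5 and 6 and wildtype 1, 2 and 3 on BeadChip 1. Null 3, null 5 and null 6 stood furthest apart by genes of other cell types, whose values are given beside the array-by-array results.

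Most mitotic genes had slightly lower values in null than in wildtype cells, and none passed the test alone. The fitted change, null minus wildtype on the log2 scale, was below 0 for 32 of 34 members, against 58.2% of all tested probes. The median change was -0.22 for the members (-0.14 without null 5) and -0.04 for all tested probes. It ran from -0.56 for Cdc25b, an activator of Cdk1, to 0.05 for Pttg1, which encodes securin. Of the 34 members 0 rose and 0 fell at an adjusted p under 0.05 (limma, adjusted over all tested probes), where 0.534% of all tested probes rose and 0.687% fell. At an unadjusted p under 0.05, 7 members were lower and 0 were higher, against 10.7% and 7.42% of all probes. Without null 1, 15 members had such a p, and without null 2, 16 did, but the share of all probes was not taken for these runs. Null 1 and null 2 were the null arrays whose mean over the members lay nearest to wildtype. Leaving either out therefore favoured more such members, and these 2 counts are not read as a result. Nusap1 was the only member whose 6 null arrays all lay below the 6 wildtype arrays, a separation in that direction that 1.63% of probes showed.

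**Figure D1:**
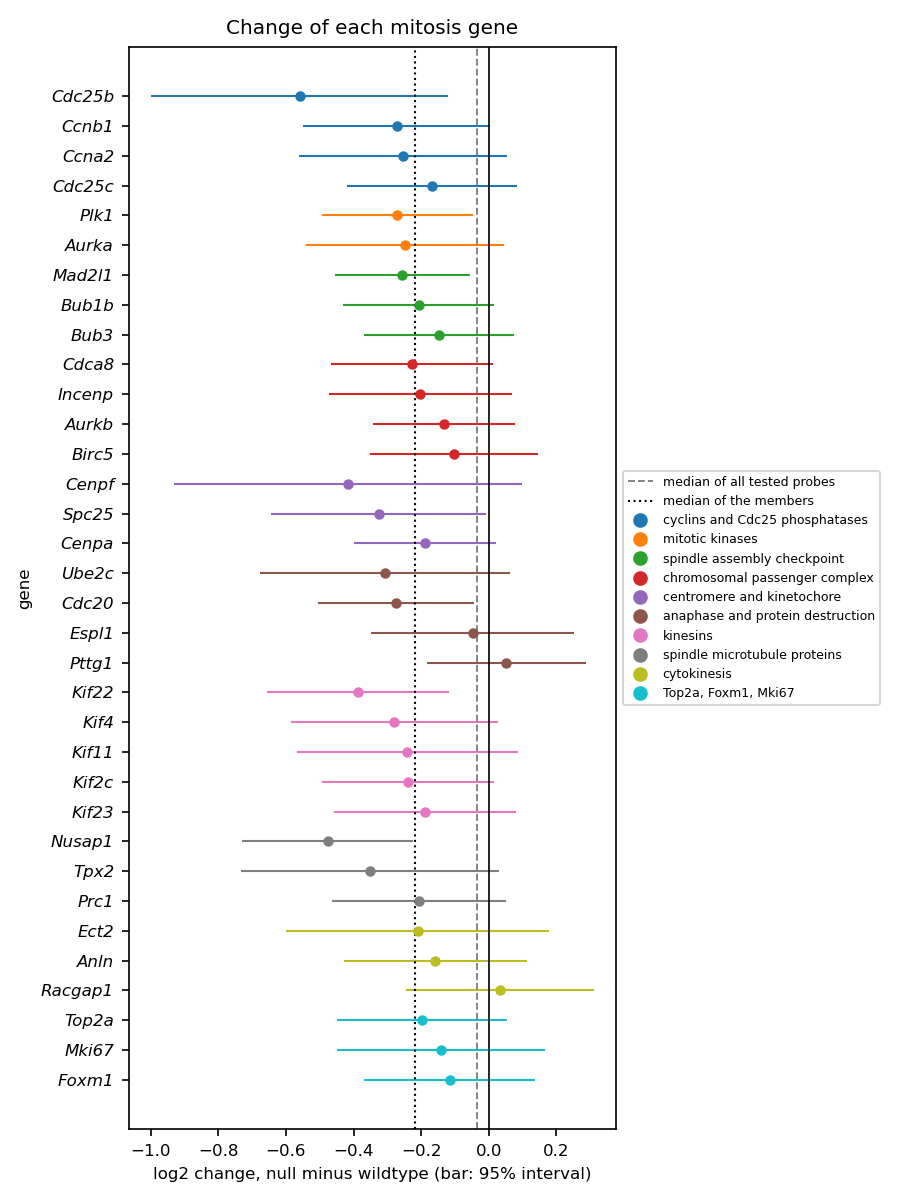
Fitted log2 change, null minus wildtype, of each of the 34 tested members with its 95% confidence interval, coloured by role, with the medians of all tested probes (dashed line) and of the members (dotted line). Points lie between -0.56 (Cdc25b) and 0.05 (Pttg1), and 32 of the 34 lie below 0.

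Promoter sequence is shown for 6 of the members described below, because many genes of late cell cycle phases share short elements near their start. The element TTTGAA is known as the cell cycle genes homology region and is read by the DREAM complex. It was searched on both strands, and in reverse it reads TTCAAA. A variant of it, TTCGAA, was counted apart. The box bound by the factor NF-Y, CCAAT, was searched in the same way, and reads ATTGG in reverse. Matches to different motifs can share at most 1 letter, and a match describes letters and not a bound site. The RefSeq promoter table, build GRCm38.p6, held 35 of the 42 members, each from 250 bases before to 50 bases after the gene's start. TTTGAA stood in 25 of these 35 (71.4%), against 20.2% of 27025 genes with a promoter in the table and 14.6% of the 6341 among them with a tested probe. Within 50 bases on either side of the start it was found in 65.7% of the members, 5.72% of all genes and 4.12% of genes with a tested probe. CCAAT stood in 80.0% of the members and 41.1% of all genes, and TTCGAA in 11.4% of the members and 487 of the 27025 genes. Among 42 DNA replication genes with a promoter 16.7% held TTTGAA and 59.5% held CCAAT. The members were listed for their mitotic function, for which these elements are known, so the shares describe the list and say nothing of the null cells.

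The 250 bases before the start are printed 5′ to 3′ on the strand of the gene, with every match in capitals. Nusap1 (chr2:119618048-119618297, plus strand), the member of smallest p, held none of the 3 motifs there. Kif22 (chr7:127042421-127042670, minus strand) held 2 matches of TTTGAA, both in reverse and the nearer 17 bases before its start, and 2 of CCAAT. Cdc20 (chr4:118437344-118437593, minus strand) held 1 of TTTGAA, 18 bases before its start, and 2 of CCAAT. Top2a (chr11:99024190-99024439, minus strand) held 2 matches each of TTTGAA and TTCGAA and 6 of CCAAT. Mki67 (chr7:135716380-135716629, minus strand) held 2 of TTTGAA and 3 of CCAAT. Ccnb1 (chr13:100786487-100786736, minus strand) held 2 of CCAAT and 0 of TTTGAA.
Nusap1: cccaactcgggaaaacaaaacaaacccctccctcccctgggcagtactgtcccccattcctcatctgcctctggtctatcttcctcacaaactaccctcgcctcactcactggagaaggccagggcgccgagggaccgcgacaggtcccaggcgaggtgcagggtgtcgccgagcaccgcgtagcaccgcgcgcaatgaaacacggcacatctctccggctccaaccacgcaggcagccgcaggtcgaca
Kif22: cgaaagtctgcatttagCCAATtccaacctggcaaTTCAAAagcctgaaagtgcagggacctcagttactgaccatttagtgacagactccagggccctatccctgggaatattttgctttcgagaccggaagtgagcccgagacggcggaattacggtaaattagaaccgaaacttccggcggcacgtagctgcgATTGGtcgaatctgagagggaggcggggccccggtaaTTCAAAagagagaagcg
Cdc20: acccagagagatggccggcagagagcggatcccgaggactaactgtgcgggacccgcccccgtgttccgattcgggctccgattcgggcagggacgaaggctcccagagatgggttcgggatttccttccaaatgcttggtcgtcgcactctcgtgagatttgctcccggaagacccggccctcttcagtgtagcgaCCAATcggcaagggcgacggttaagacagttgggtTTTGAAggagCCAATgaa
Top2a: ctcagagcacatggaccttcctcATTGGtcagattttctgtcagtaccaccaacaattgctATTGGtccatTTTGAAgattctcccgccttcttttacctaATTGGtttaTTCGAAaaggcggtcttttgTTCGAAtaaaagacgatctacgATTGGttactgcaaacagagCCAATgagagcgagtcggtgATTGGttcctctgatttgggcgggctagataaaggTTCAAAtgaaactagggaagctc
Mki67: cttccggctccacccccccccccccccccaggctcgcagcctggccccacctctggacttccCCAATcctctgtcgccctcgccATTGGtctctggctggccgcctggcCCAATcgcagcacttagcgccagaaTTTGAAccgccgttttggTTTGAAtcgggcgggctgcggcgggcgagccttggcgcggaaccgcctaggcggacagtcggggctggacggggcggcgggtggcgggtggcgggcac
Ccnb1: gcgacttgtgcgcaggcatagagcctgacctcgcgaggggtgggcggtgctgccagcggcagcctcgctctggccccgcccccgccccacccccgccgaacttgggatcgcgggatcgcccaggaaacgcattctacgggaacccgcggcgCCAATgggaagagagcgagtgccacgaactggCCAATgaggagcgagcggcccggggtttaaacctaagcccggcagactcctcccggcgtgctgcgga

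Among the cyclins and Cdc25 phosphatases, all 4 tested genes had a change below 0 and 0 passed. Cdc25b, which removes the inhibitory phosphates from Cdk1, lay between 8.83 and 9.16 in wildtype arrays, with a median of 9.07. In null arrays it ran from 7.47 through a median of 8.61 to 8.999. Of the null arrays 5 lay below every wildtype array, null 5 far below the rest, and null 3 lay inside the wildtype range. The change was -0.56 (SE 0.20, limma adjusted p = 0.18). Without null 5 it was -0.36, and it was -0.98 on BeadChip 1 and -0.14 on BeadChip 2. A second, dimmer Cdc25b probe gave -0.37 (limma adjusted p = 0.098).

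Ccnb1, cyclin B1, ran from 10.96 to 11.18 in wildtype arrays (median 11.02) and from 10.24 to 11.08 in null arrays (median 10.82). Null 1 and null 2 lay among the wildtype arrays and the other 4 null arrays below all of them. The change was -0.27 (SE 0.13, limma adjusted p = 0.28), and the second tested probe gave -0.31. Ccna2, cyclin A2, was at -0.25 and Cdc25c, a paralogue of Cdc25b, at -0.17. A second Cdc25c probe of nearly the same level (7.54 for both, mean over 12 arrays) gave -0.29 (limma adjusted p = 0.22). The cyclin B2 gene Ccnb2 was detected on no array and was not tested.

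Of the 3 mitotic kinase genes 2 were tested. Plk1, whose protein PLK1, polo-like kinase 1, acts from mitotic entry to cytokinesis, lay between 11.52 and 11.73 in wildtype arrays (median 11.68). Its null arrays ran from 10.95 to 11.60 with a median of 11.39. Null 1 and null 2 fell inside the wildtype range, and null 5 was lowest by a wide gap. The change was -0.27 (SE 0.10, limma adjusted p = 0.20), with -0.19 left when null 5 was left out. Aurka, which encodes AURKA, the centrosomal kinase Aurora A, ran from 10.31 to 10.72 in wildtype arrays (median 10.45) and from 9.79 to 10.58 in null arrays (median 10.22). Here null 3, 5 and 6 lay below every wildtype array, while null 4 at 10.40 lay inside their range. The change was -0.25 (SE 0.14, limma adjusted p = 0.35). Nek2, a centrosome separation kinase, was detected on 1 array only.

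In the spindle assembly checkpoint, Mad2l1, Bub1b and Bub3 were tested and 0 passed. Mad2l1 encodes Mad2, which binds and holds back Cdc20. It ran from 11.38 to 11.56 in wildtype arrays (median 11.46) and from 10.93 to 11.42 in null arrays (median 11.21). The groups overlapped through null 1 and null 2 alone. The change was -0.26 (SE 0.09, limma adjusted p = 0.18), and 2 probes gave -0.26 and -0.31. Bub1b, which encodes BubR1, was at -0.21, and Bub3, which brings BubR1 to kinetochores, at -0.15. Bub1 was detected on no array. The chosen probe of Ttk, the checkpoint kinase Mps1, was detected on 2 arrays and was not tested, and a slightly dimmer Ttk probe detected on 4 arrays gave -0.12.

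The chromosomal passenger complex corrects faulty attachments and later sets the site of cleavage. Its 4 genes were all tested, and 0 passed. Cdca8, which encodes borealin, was at -0.23, the scaffold Incenp at -0.20, the kinase Aurkb at -0.13 and the survivin gene Birc5 at -0.10. The median of the 4 was -0.34 on BeadChip 1 and 0.00 on BeadChip 2. The 3 Birc5 probes gave -0.10, 0.02 and 0.04, so the sign of that gene depended on the probe.

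At the centromere and kinetochore, Cenpa, the histone H3 variant that marks centromeres, was the brightest member probe (13.39 ± 0.08 in wildtype and 13.20 ± 0.21 in null arrays, SD, n = 6 each) with a change of -0.19. Spc25, a subunit of the Ndc80 complex that holds microtubules, ran from 8.91 to 9.21 in wildtype arrays (median 9.07). In null arrays it ran from 8.14 to 9.23 with a median of 8.83. Null 1 was the highest of all 12 arrays for this gene, and null 3 to 6 lay below every wildtype array. The change was -0.33 (SE 0.15, limma adjusted p = 0.26), and a second probe gave -0.30. Cenpf, a large kinetochore protein, was at -0.42 (SE 0.24), while its 2 dimmer probes gave -0.20 and -0.23. It was one of 2 members with a lower value on BeadChip 2 (-0.65) than on BeadChip 1 (-0.19), the other being Pttg1. Cenpe, a kinetochore motor, was detected on no array.

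Genes of anaphase and protein destruction had 3 of 4 changes below 0, and 0 passed. The protein of Cdc20, CDC20, activates the anaphase-promoting complex. The gene lay between 12.09 and 12.34 in wildtype arrays (median 12.19) and between 11.51 and 12.19 in null arrays (median 11.97). Null 1 and null 2 lay inside the wildtype range and the other 4 null arrays below it. The change was -0.27 (SE 0.11, limma adjusted p = 0.21), and the 4 Cdc20 probes gave -0.27 to -0.24. Ube2c, the ubiquitin-conjugating enzyme of that complex, was at -0.31, with -0.68 on BeadChip 1 and 0.07 on BeadChip 2.

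Pttg1, the securin that restrains separase, was dim, from 4.44 to 5.08 in wildtype arrays (median 4.72) and from 4.60 to 4.97 in null arrays (median 4.82). Every null array lay inside the wildtype range. The change was 0.05 (SE 0.11, limma adjusted p = 0.84), and it was -0.06 on BeadChip 2. Espl1, separase itself, was at -0.05, and at 0.08 without null 5.

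All 5 tested kinesin genes had a change below 0, with 0 passing. Kif22, a chromosome-arm motor also called Kid, ran from 11.63 to 11.99 in wildtype arrays (median 11.82). In null arrays it ran from 11.12 to 11.83 with a median of 11.36. Null 3 to 6 lay below every wildtype array, whereas null 1 and null 2 lay among them. The change was -0.39 (SE 0.13, limma adjusted p = 0.14). On BeadChip 1 it was -0.65 and on BeadChip 2 it was -0.12. Kif4, a chromosome-bound motor, was at -0.28, Kif11, the motor that pushes spindle poles apart, at -0.24, and Kif2c, a microtubule depolymerase, at -0.24. Kif23, a motor of the central spindle, was at -0.19. Kif20a, needed for cytokinesis, was detected on no array.

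The spindle microtubule proteins held the member of smallest p. Nusap1, whose protein NUSAP1 bundles microtubules around chromosomes, lay between 11.70 and 11.89 in wildtype arrays (median 11.79). In null arrays it lay between 10.93 and 11.61 with a median of 11.40. The groups did not overlap: null 2, the highest null array, was below the lowest wildtype array, and null 4 and null 5 were lowest. The change was -0.48 (95% confidence interval -0.73 to -0.22, limma adjusted p = 0.067), a percent change of -28.1 in level, and it was -0.40 without null 5. Over the alternatives its adjusted p ran from 0.033 to 0.47, and it passed without null 2 (limma adjusted p = 0.043), without background correction (0.048) and with a trended and robust prior (0.033). It was -0.68 on BeadChip 1 and -0.27 on BeadChip 2. A second probe detected on all 12 arrays gave -0.24 (limma adjusted p = 0.33). Another probe was detected in 5 wildtype samples and in 0 null ones. It met the filter through wildtype arrays alone, so its lower null level adds no separate support. Tpx2, which activates Aurora A on the spindle, was at -0.35 and Prc1, which crosslinks the central spindle, at -0.21. Hmmr, a spindle pole protein, was detected on no array.

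Of the cytokinesis genes, Ect2, which activates RhoA at the cleavage site, was at -0.21 and the ring scaffold Anln at -0.16. Racgap1, part of the centralspindlin complex with Kif23, ran from 5.02 to 5.53 in wildtype arrays (median 5.32) and from 5.02 to 5.67 in null arrays (median 5.29). Null 2 and null 4 were the highest of all arrays and null 5 and null 6 among the lowest. The change was 0.03 (SE 0.13, limma adjusted p = 0.92).

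Top2a, which encodes TOP2A, the topoisomerase that untangles sister chromatids, ran from 11.40 to 11.76 in wildtype arrays (median 11.68) and from 10.99 to 11.68 in null arrays (median 11.47). Only null 4 and null 5 lay below every wildtype array. The change was -0.20 (SE 0.12, limma adjusted p = 0.38), but its probes disagreed, with -0.59 (limma adjusted p = 0.12) and -0.13 for the 2 dimmer ones. Mki67, the proliferation marker Ki-67, ran from 11.12 to 11.40 in wildtype arrays (median 11.22) and from 10.70 to 11.53 in null arrays (median 11.11). For this gene null 3 and null 6 were the 2 highest of all 12 arrays, and null 4 and null 5 the 2 lowest. The change was -0.14 (SE 0.14, limma adjusted p = 0.63). Foxm1, the transcription factor of the G2 and M phase programme, ran from 8.24 to 8.75 in wildtype arrays (median 8.39) and from 7.94 to 8.58 in null arrays (median 8.36). Its arrays overlapped except for null 3 and null 5, which were lowest, and the change was -0.12 (SE 0.12, limma adjusted p = 0.63).

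**Figure D2:**
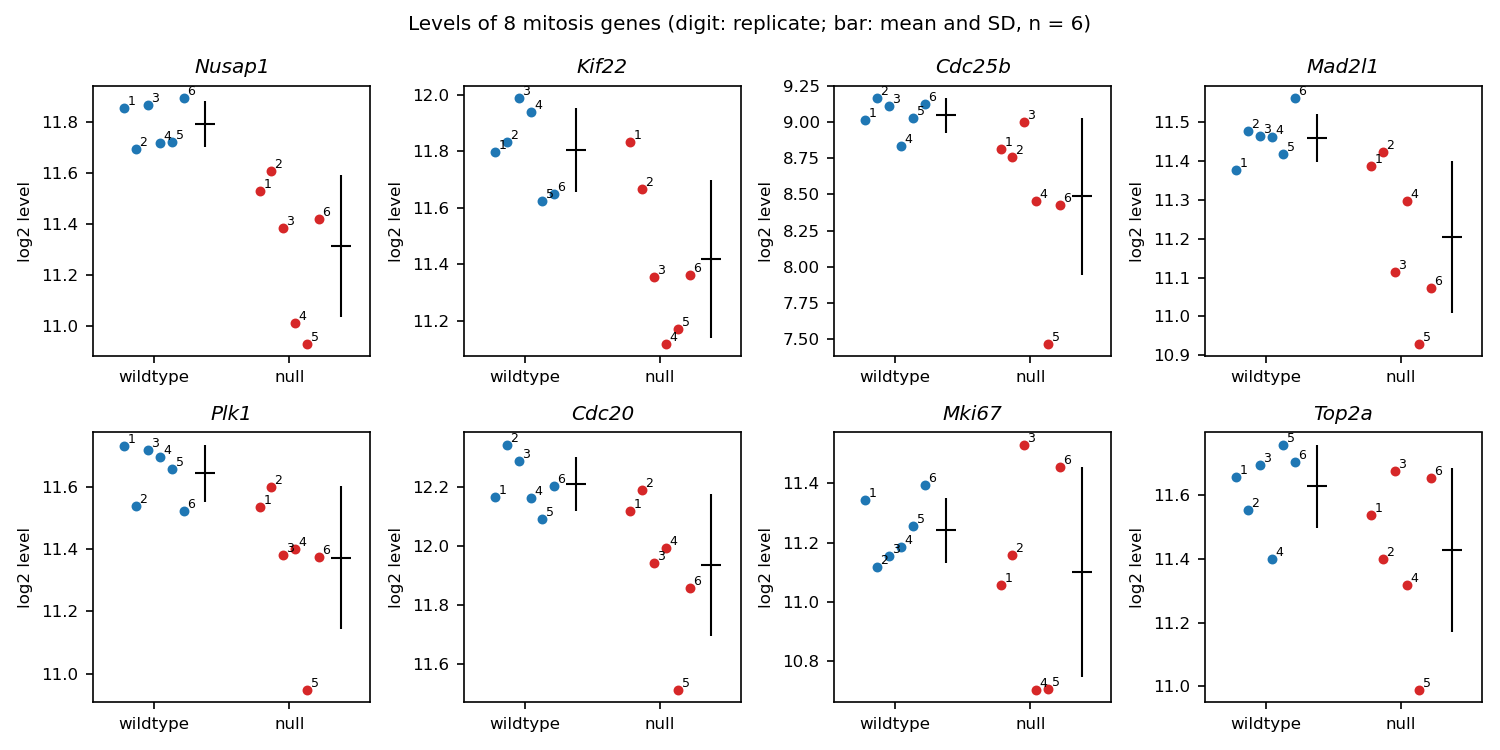
Log2 level of Nusap1, Kif22, Cdc25b, Mad2l1, Plk1, Cdc20, Mki67 and Top2a on each array, with points numbered by replicate and bars giving the group mean and SD (n = 6). The 6 null arrays lie below the 6 wildtype arrays for Nusap1, between 10.93 and 11.61 against 11.70 to 11.89, and overlap them for the other genes shown.

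Null arrays differed more among themselves than wildtype arrays did. The standard deviation over 6 arrays was larger in null than in wildtype arrays for 30 of 34 members and for 74.2% of all tested probes, and its median over the members was 0.28 against 0.11. Averaged over the 34 members, each array's deviation from the wildtype mean lay between -0.04 and 0.04 in the wildtype arrays. Null 1 and null 2 lay inside that range, at -0.03 and 0.00. Null 3, null 4 and null 6 stood at -0.21, -0.22 and -0.25, and null 5 at -0.64.

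Counted gene by gene, null 5 lay below every wildtype array for 32 of 34 members, where 39.7% of all tested probes did. The same count was 22 for null 3 (27.8% of probes), 20 for null 4 (28.9%) and 23 for null 6 (24.9%). It was 4 for null 1 (17% of probes) and 3 for null 2 (13%), both below those shares. Null 5 was the lowest of all 12 arrays for 29 members, against 28.7% of probes. Without null 5 the median change was -0.14, with 30 members below 0 (55.1% of probes) and 7 lower at an unadjusted p under 0.05 (9.35% of probes), and 0 members fell.

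**Figure D3:**
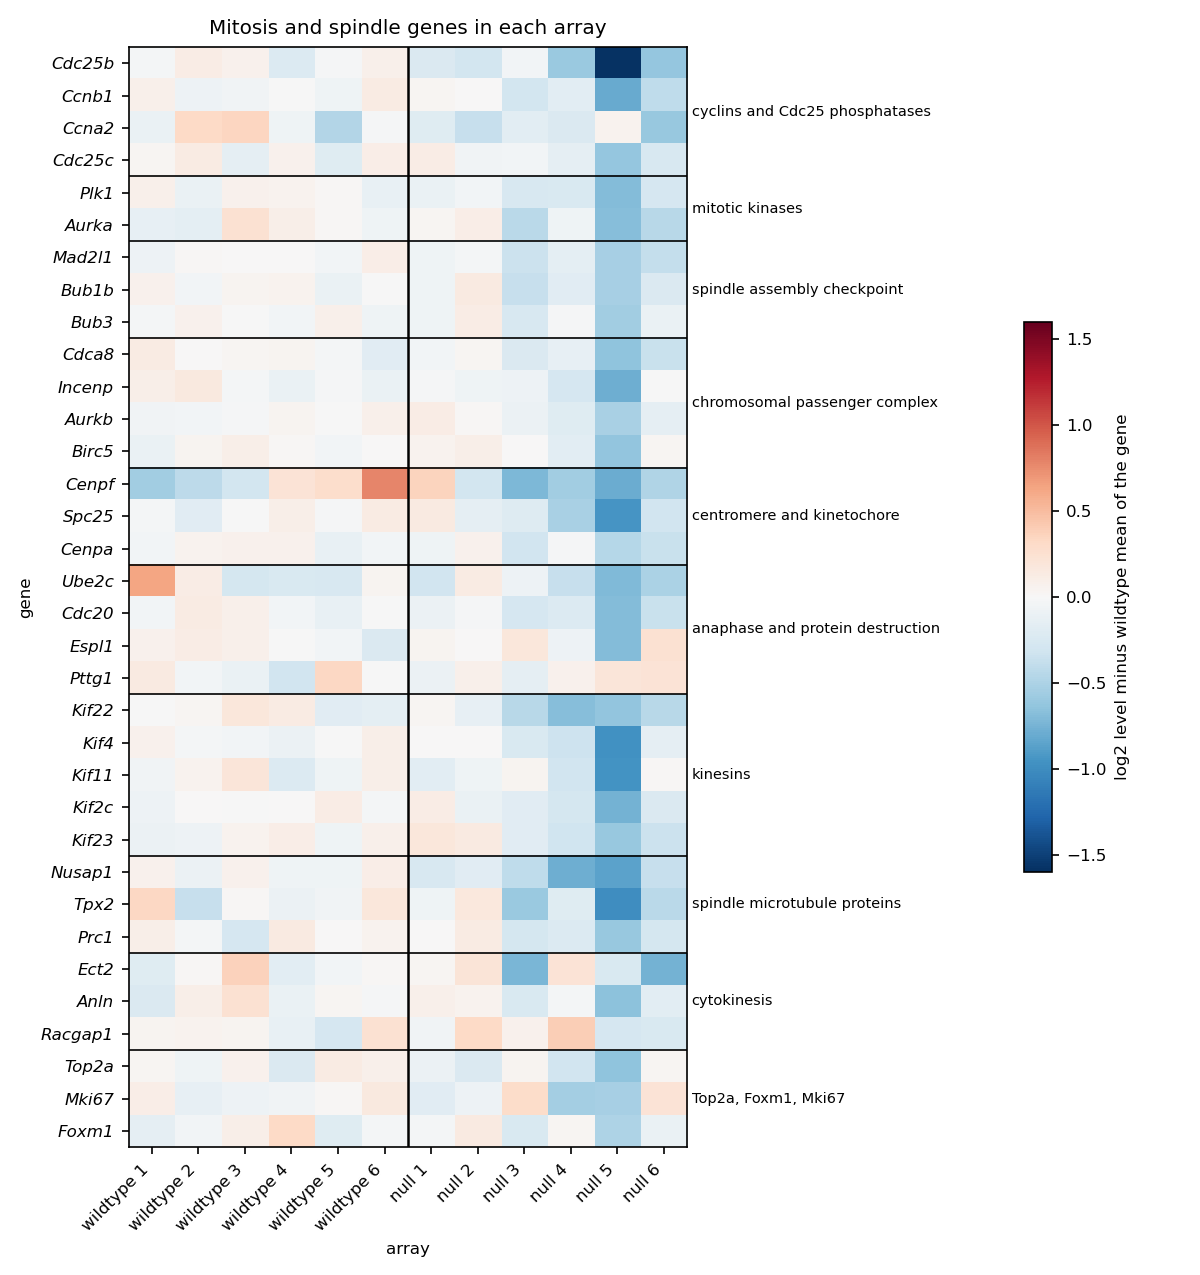
Log2 level of each tested member on each array minus its wildtype mean, with the 34 members grouped by role in rows and the 12 arrays in columns. Null 5 is lowest for 29 members, null 1 and null 2 stay close to the wildtype arrays, and Mki67 is high in null 3 and null 6.

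The roles did not all follow the same arrays, a pattern noticed after the values were seen and described without a test. Cyclins and Cdc25 phosphatases averaged -0.47 in null 6 and -0.14 in null 3. The group of Top2a, Foxm1 and Mki67 averaged 0.03 in null 3 and 0.05 in null 6, while the kinesins averaged -0.20 and -0.23 there. Genes within a role differed too. In null 3 and null 6 Mki67 stood at 0.29 and 0.21 and Foxm1 at -0.25 and -0.10, and the kinesin Kif11 at 0.04 and 0.02. Cytokinesis genes averaged 0.19 in null 4, the array in which kinesins stood at -0.38 and spindle microtubule proteins at -0.40. Of the cytokinesis genes, the dim Racgap1 stood at 0.39 there, Ect2 at 0.22 and Anln at -0.04.

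Which markers of other cells were raised differed between the null arrays with lower mitotic values. T and NK cell markers lay above the wildtype range in all of them and, narrowly, in null 1. The 5 tested plasmacytoid dendritic cell markers averaged 2.62 above the wildtype mean in null 5, 1.70 in null 6 and 1.04 in null 3. Wildtype arrays ran from -0.56 to 0.75, and null 4 (0.46), null 1 (-0.12) and null 2 (0.05) lay inside that range. The summed intensity of the plasmacytoid markers ran from 1888 to 4467 in wildtype and from 2719 to 17457 in null arrays. Ccr9 and Cd209d were detected on no array. The 9 T and NK cell markers averaged 2.09 in null 5, 1.34 in null 6 and 1.77 in null 3. They averaged 0.53 in null 4, 0.26 in null 1 and 0.18 in null 2, against -0.13 to 0.22 in wildtype. Cd8a and Ncr1 were detected on no array. Sums of the T and NK cell markers ran from 715 to 1203 in wildtype and from 1067 to 18641 in null arrays. The 12 neutrophil and monocyte markers averaged 3.47 in null 3 and 0.78 in null 5, against -0.45 to 0.43 in wildtype. They lay inside that range in null 1 (0.41), null 2 (0.04), null 4 (-0.38) and null 6 (-0.08). Their sums were 7234 to 12695 in wildtype and 6201 to 77335 in null arrays.

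On average the 11 pre-B cell markers lay below the wildtype range of -0.16 to 0.06 in 5 of the 6 null arrays. They averaged -1.17 in null 5, -0.42 in null 1, -0.39 in null 2, -0.33 in null 3 and -0.33 in null 6, and lay above that range in null 4 at 0.37. Summed over the marker list, pre-B intensity ran from 22375 to 24867 in wildtype arrays and from 12017 to 25974 in null arrays. The mean of the 5 plasma cell markers lay above its wildtype range of -0.09 to 0.06 in all 6 null arrays. It was 0.15, 0.09, 0.32, 0.28, 0.77 and 0.14 in null 1 to null 6. Of these markers 4 had a change above 0, and Irf4 went the other way at -0.51. Prdm1 and Jchain, also listed for plasma cells, were detected on no array. The mean of the 4 erythroid markers ran from -0.99 in null 1 to 1.33 in null 3, against -0.36 to 0.77 in wildtype arrays. Gata1 was detected on none. The mean of the 4 mature B cell markers ran from -0.15 in null 4 to 0.64 in null 6, against -0.10 to 0.17. Cr2 was detected on none. The part of these cells in the lower mitotic values was not tested. Without null 3 and null 5, a choice made after seeing the data, the median change of the members was -0.12, with 29 of 34 below 0 (52.4% of probes) and 4 lower at an unadjusted p under 0.05 (7.59% of probes).

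**Figure D4:**
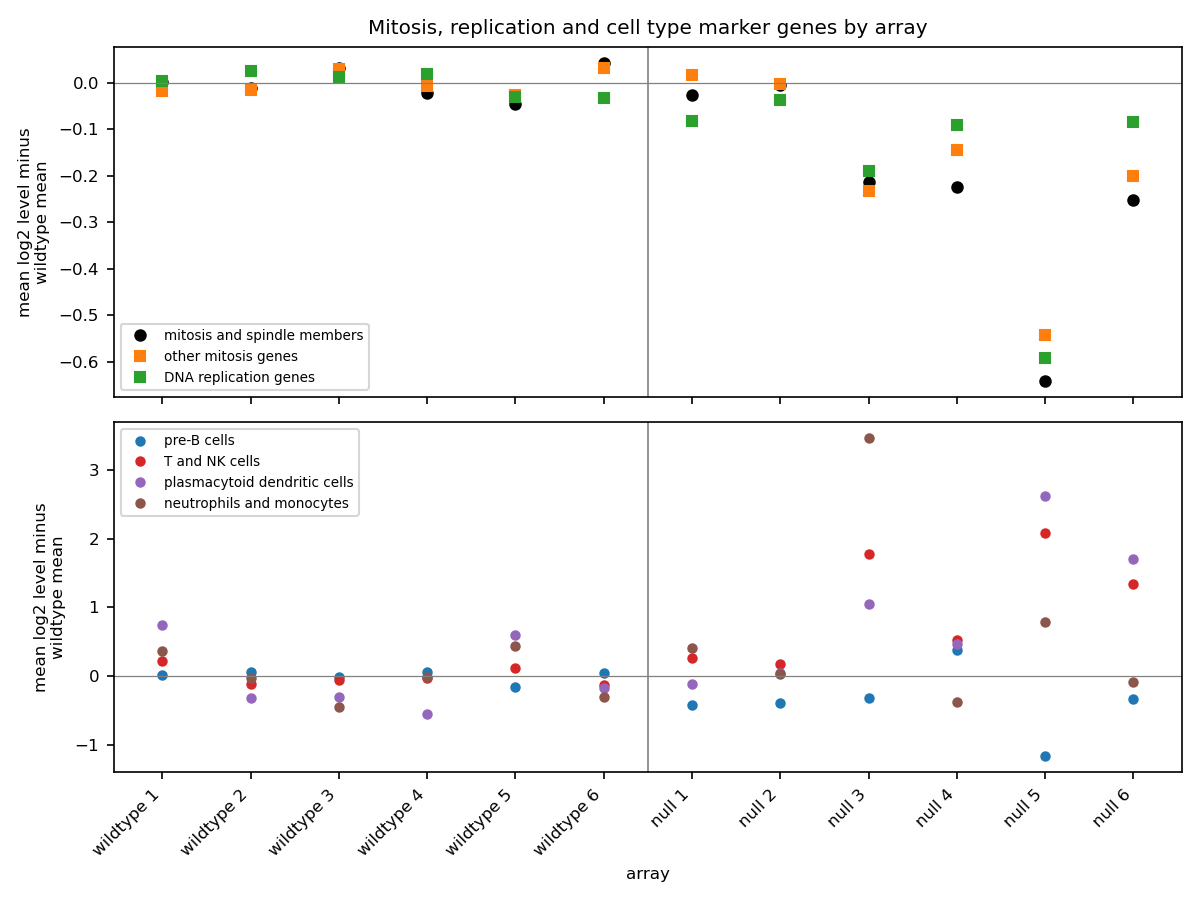
Upper panel: mean log2 deviation from the wildtype mean of the 34 tested members, 102 other mitosis genes and 50 DNA replication genes on each of the 12 arrays. Lower panel: the same for markers of 4 cell types, where null 5 has the lowest pre-B value (-1.17) and the highest plasmacytoid dendritic value (2.62).

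Changes were larger on BeadChip 1 than on BeadChip 2, on which null 1, 2 and 3 and wildtype 4, 5 and 6 were hybridised. The median member change was -0.37 on BeadChip 1, with 33 of 34 below 0 (59.3% of probes), and -0.07 on BeadChip 2, with 26 of 34 below 0 (52.7% of probes). For 32 of the 34 members the value on BeadChip 1 was the lower one, a count for which no share of all probes was taken. The members share the arrays, so these are not separate observations. Over all tested probes the median change was -0.06 on BeadChip 1 and -0.01 on BeadChip 2. The difference between BeadChips, tested as an interaction in limma, passed for 0 members and for 0 of all tested probes after adjustment, and the smallest adjusted p of a member was 0.85. At an unadjusted p under 0.05 it was seen for 3 members, Cdc25b, Kif22 and Ube2c, against 5.72% of probes. Null arrays of the 2 BeadChips are different samples, so the BeadChip and the sample cannot be told apart in this difference. Mean intensity over negative controls on BeadChip 1 was 3.08, 3.29 and 3.31 in null 4 to 6, against 3.78, 3.76 and 3.27 in wildtype 1 to 3. On BeadChip 2 it was 3.80, 4.43 and 4.17 in null 1 to 3, against 4.17, 3.95 and 3.79 in wildtype 4 to 6. Its part was not tested.

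Other genes of mitosis outside the 42 were also mostly below 0. Of 132 listed genes 102 were tested, 89 of them with a change below 0 (58.2% of all probes), and their median was -0.22. Of these 1 fell (0.687% of all probes) and 0 rose. At an unadjusted p under 0.05, 33 were lower (10.7% of all probes) and 2 higher (7.42%), and without null 5, 20 were lower (9.35%). The gene that fell was Ncapg2, a subunit of condensin II, with means of 7.50 ± 0.23 over wildtype and 6.93 ± 0.23 over null arrays (SD, n = 6 each). Its 6 null arrays lay below the 6 wildtype arrays, as for 3 of the 102 tested genes in all and 1.63% of all probes. For 2 of the 102 genes they lay above. The change of Ncapg2 was -0.58 (limma adjusted p = 0.047). It no longer passed under 18 of 25 alternatives, among them each run that left out 1 wildtype array and those without null 3, 4, 5 or 6 (limma adjusted p up to 0.11 in these runs).

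Sgo2a, which protects cohesin at centromeres, was at -0.54, Dsn1, a kinetochore linker, at -0.49 and Kntc1, a checkpoint protein of the kinetochore, at -0.34, and none of them passed. Of other spindle genes Spag5 was at -0.42, Cdca3 at -0.31 and Cdca2 at -0.27. Among condensin and cohesin genes Ncapg was at -0.52. Wapl, which releases cohesin from chromosomes, stood the other way at 0.79 (SE 0.21, limma adjusted p = 0.078). Without null 5, a run named because it passed there, the limma adjusted p of Wapl was 0.037. All 6 null arrays of Wapl lay above the 6 wildtype arrays, narrowly for null 1 (6.33 against 6.29 in wildtype 1). Of all tested probes 1.38% were separated in that direction. Of the anaphase-promoting complex, the subunits Cdc23, Anapc7 and Cdc27 were at -0.46, -0.24 and -0.35. The limma adjusted p of Cdc23 was 0.057, and 0.031 without null 2, a run named because it passed there.

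Cdk1, which the array lists under the older symbol Cdc2a, ran from 11.34 to 11.51 in wildtype arrays (median 11.37) and from 10.56 to 11.47 in null arrays (median 11.17). All but 1 of its null arrays lay below every wildtype array, and the change was -0.26 (limma adjusted p = 0.29). Ensa, an inhibitor of the phosphatase that opposes Cdk1, was at -0.20 and Plk4, the centriole duplication kinase, at -0.32. Among regulators of this gene programme Rb1 was at -0.43, and its partner in chromatin Rbbp4 at -0.53. Cdkn1a, the inhibitor p21 of cyclin-dependent kinases, ran from 6.62 to 7.46 in wildtype arrays (median 6.86). In null arrays it ran from 7.49 to 9.46 with a median of 7.87, so that all 6 lay above the wildtype arrays, and 1.38% of probes were separated in that direction. The highest Cdkn1a value was in null 4, and the change was 1.09 (SE 0.29, limma adjusted p = 0.080). The adjusted p in limma was 0.041 without null 4 and 0.087 without null 5.

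DNA replication genes, which peak earlier in the cycle, were mostly below 0 as well. Of 52 listed genes 50 were tested, with a median change of -0.18 and 47 below 0 (58.2% of all probes). At an unadjusted p under 0.05, 11 were lower (10.7% of all probes) and 0 higher, and 0 passed after adjustment in limma. Without null 5, 5 of the 50 were lower, a share near the 9.35% of all probes. Rfc4, a clamp loader subunit, was at -0.44 (limma adjusted p = 0.059, and 0.019 without null 5, a run named because it passed there). Cdc6, which licenses origins, was at -0.34 and Uhrf1, which maintains DNA methylation, at -0.39. Averaged over the 50 genes, null 5 stood at -0.59, null 3 at -0.19, null 4 at -0.09, null 6 and null 1 at -0.08 and null 2 at -0.04, all below the -0.03 to 0.03 of the wildtype arrays. In null 4 and null 6 these values lay nearer to wildtype than those of the 34 mitotic members, a difference that was not tested.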

How the data were processed

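Groups, replicate numbers and BeadChips came from the labels. The members and gene lists were chosen with earlier results of these data known.

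Per the file headers, the authors exported raw intensity, averaged over the beads of a probe, with GenomeStudio 1.8.0, beside the standard deviation and counts of those beads. A detection score (a fraction) and a detection p-value against negative controls were deposited too, and they sum to 1. The authors' log2 values were made with neqc, per the deposited readme, and the submitters' processing notes name BeadStudio, R 2.15.1 and limma 3.12.1. Probe sequences and a genome build are not given in the sources used here. A further 48 per-sample columns were not used.

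Intensities were corrected with 936 negative control probes, quantile normalized and, after an offset of 16, log2 transformed (neqc, limma 3.58.1, R 4.3.3), which differed from the authors' values by at most 5e-09. Every tested probe was fitted with lmFit and eBayes, null against wildtype without covariates, and Benjamini-Hochberg adjustment ran over all 17607. Bead counts of the tested members ran from 21 to 74 per probe and array. The procedure was tested on simulated data. Levels of the 8 members of smallest p, of those with a positive change and of Foxm1, Mki67, Ccnb1, Top2a and Aurka are described array by array. From each further list the 3 genes of smallest p and Cdk1 are named. Of 12 arrays no pair held identical intensities.

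Alternatives were the authors' values, median scaling, no background correction, other filters, blocks for BeadChip or for replicate number, single BeadChips, array weights, a trended and robust prior, the mean of a gene's probes and each array left out. Leaving out null 3 and null 5 was added after seeing the data.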

Additional observations from a re-analysis of the deposited data

Results flagged for a closer look

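Within the 6 null arrays, 7 of the 34 members had a lowest array set apart from the other 5. Each time it was null 5. The gap to the next array, as a share of the whole range of the null arrays, was 0.628 for Cdc25b, 0.653 for Plk1, 0.653 for Incenp, 0.651 for Birc5, 0.645 for Espl1, 0.660 for Kif11 and 0.646 for Kif4, above the 95% critical value of Dixon's test for 6 arrays. For the mean over all 34 members the share was 0.611, which did not pass. In null 5 these 7 genes stood at 7.47, 10.95, 9.82, 11.23, 7.55, 9.04 and 8.86 log2 intensity in that order. The search covered 70 groups of 6 arrays, and chance marks about 1 group in 20. The genes share the array, so these are not 7 separate observations. Birc5 and Espl1 had a change above 0 once null 5 was left out.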

How the results depend on the processing

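As reported, 0 members changed (limma). Over all alternatives 2 to 16 members had an unadjusted p under 0.05, and for most of these runs no share of all probes was taken. The count became 1, Nusap1 each time, without background correction, with a trended and robust prior, and in runs leaving out 1 array, which gave 0 to 1. Among the other mitosis and replication genes 1 changed as reported. The count was 0 with median scaling, without a filter, on BeadChip 1 alone, on BeadChip 2 alone, with the replicate block, with the mean of a gene's probes and without null 3 and null 5. It was 2 with BeadChip as a block, 3 with array weights, 3 with a trended and robust prior and 4 without background correction, and leaving out 1 array gave 0 to 3. The median change of the members stayed below 0, from -0.32 with median scaling, where all tested probes had a median of -0.09, to -0.07 on BeadChip 2. Of the 34 tested members 32 stayed below 0 with median scaling. Of 1395 values of 57 single genes under 25 alternatives, 1340 kept their direction and their side of the threshold.

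The sign turned on BeadChip 2 alone for Cdc25c (0.0097), Incenp (0.0215), Birc5 (0.0564), Ube2c (0.0672), Espl1 (0.171), Kif23 (0.0071), Anln (0.00039) and Pttg1 (-0.0595), and on BeadChip 1 alone for Racgap1 (-0.0879). Without null 3 and null 5 it turned for Birc5 (0.0033), Espl1 (0.0555) and Foxm1 (0.0105), and with array weights for Espl1 (0.067). Leaving out 1 array gave -0.141 to 0.0032 for Birc5 and -0.107 to 0.0814 for Espl1, above 0 without null 5. It gave -0.0095 to 0.118 for Pttg1, below 0 without wildtype 4, and -0.0368 to 0.0941 for Racgap1, below 0 without wildtype 5, null 2 or null 4. The cause was not tested.  Within a BeadChip 3 arrays stood against 3.

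Replicate numbers occur in both groups, and the deviations of same-numbered arrays had correlations of -0.29 to 0.08. Same-numbered arrays lay on different BeadChips, so these values cannot decide whether the samples were paired. With the replicate block the median member change was -0.22 and 0 members changed. In that run 6 members had an unadjusted p under 0.05, with no share of all probes taken. Dim probes limit Pttg1, Racgap1, Ccna2 and Ube2c, whose levels lay within about 1 log2 unit of the dimmest tested member probe, and 7 members were too dim to test.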
